A study of Mus musculus with 48 samples.

Results

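The genes described here encode 9 enzymes of cholesterol synthesis, measured in mouse tissue from the junction of oesophagus and stomach. They are Hmgcs1, Mvd, Idi1, Fdps, Fdft1, Sqle, Lss, Cyp51 and Dhcr7, and each was read from the probe set entry with the highest mean signal among the entries annotated with that symbol alone. Of the 9 genes, 8 had such an entry and all 8 were among the 15242 genes tested, out of 22180 genes with an entry. Idi1 shared its entry with another symbol and has no value here.

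Cholesterol is built from acetyl-CoA in a long chain of enzymes: an early arm makes mevalonate and from it the isoprenoid farnesyl pyrophosphate, a middle step joins farnesyl units to squalene and closes squalene into lanosterol, and the last steps trim lanosterol to cholesterol. Most of these enzymes are transcribed together, because their genes are targets of SREBP2, a membrane-bound factor that SCAP carries to the Golgi for activation when sterols in the membrane are low and that INSIG proteins hold back when sterols are plentiful. Squamous epithelium uses cholesterol for membranes and for the lipid of its barrier, and dividing or growing cells of any kind need it for new membrane.

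The study used a mouse model of Barrett oesophagus, in which columnar lining takes the place of squamous lining near the stomach, to ask what a fatty diet, interleukin-8, FXR (a nuclear receptor for bile acids) and Notch signals do on the way to cancer. RNA from the whole junction and cardia in 48 samples was hybridised to Affymetrix arrays, 1 each, in 16 groups of 3. The mice named pL2 carry a human interleukin-1 beta transgene under a promoter that is active in squamous lining of the mouth, oesophagus and forestomach. Chow-fed wild-type (WT) and pL2 groups were kept at each of the facilities MRI and Freising, and a high fat diet (HFD) was given to a WT and a pL2 group at Freising, all at 12 months. At MRI, on chow, were a line named FXR and its cross pL2_FXR at 12 months, and pL2_IL8, which also overexpresses interleukin-8, at 9 and 12 months. The labels do not say what the FXR allele does. A further 6 lines at MRI, on chow, carried pL2 with an Lgr5 or a Dclk driver and Notch1fl_fl, Notch2fl_fl or Notch2IC_LacZ; they received tamoxifen at 3 to 6 months and were taken at 9 to 13 months. Thus 12 groups (36 arrays) had the transgene and 4 groups (12 arrays) did not.

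The arrays carried the markers of the labelled tissue. The mean log2 signal of the gastric columnar markers lay between 11.41 and 12.75 and that of the squamous suprabasal markers between 6.98 and 10.49 over the 48 arrays. Array medians lay between 4.03 and 4.27, and arrays of 1 group correlated at 0.918 to 0.989. Some arrays carried markers of other organs: 10 had a hepatocyte or an intestinal marker mean above 8, with a hepatocyte mean of up to 11.28 and an intestinal mean of up to 10.07. Sample titles with a trailing number formed a further split, which all 3 MRI groups of WT, pL2 and pL2_FXR carried on every array, whereas 3 of 3 pL2 and 0 of 3 WT chow arrays at Freising did. On HFD, 2 of 3 pL2 and 0 of 3 WT arrays carried it. Titles also held a letter code that followed the groups: CM in pL2_IL8, NS at Freising, TH in the Notch lines and AN in the other MRI groups. What the code stands for was not established. Facility and this code cannot be told apart. The same holds for genotype and code where pL2_IL8 or a Notch line is set against pL2 mice at MRI. Labelled ages differ within each of the 6 Notch lines, so those arrays are not all repeats of 1 animal. For the other 10 groups no label says that the samples came from separate animals, so the spread between these samples may be technical. The p-values rest on 1 estimate of spread per gene, shared by all 16 groups.

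SREBP2 acts on these genes together with the factors NF-Y and Sp1, so the stretches just before the start sites are printed for 4 members from different stages of the chain. Promoter windows of 300 bases (250 before and 50 after the start) were listed by RefSeq (GRCm38.p6) for 6 of the 9 genes. A CCAAT box, which binds NF-Y, a partner of SREBP on sterol genes, lay in at least 1 window of 6 of these 6 genes. It was found in 6 of their 8 windows and in 37.4% of all 32851 windows, counting both strands. The sterol response element, searched as TCACNCCAC, lay in 1 of the 8 windows, that of Hmgcs1, and in 1.24% of all windows. No other form of this element was searched, so windows without a match are not shown to lack one. GGGCGG, the Sp1 box, was in 7 of 8 windows and 35.7% of all, and the E-box CACGTG in 1 of 8 and 7.15%. None of the 4 motifs contains another, and a match is a description of letters only. The 150 bases before the start are given 5′ to 3′ on the strand of the gene, with capitals marking CCAAT or its reverse complement and, in Hmgcs1, also the sterol response element.
Hmgcs1, chr13:119690201-119690350, plus strand, start of the mevalonate arm: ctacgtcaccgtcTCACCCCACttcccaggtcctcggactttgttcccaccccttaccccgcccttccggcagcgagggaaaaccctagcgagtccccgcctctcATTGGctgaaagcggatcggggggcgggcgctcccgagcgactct
Mvd, chr8:122443423-122443572, minus strand, end of the mevalonate arm: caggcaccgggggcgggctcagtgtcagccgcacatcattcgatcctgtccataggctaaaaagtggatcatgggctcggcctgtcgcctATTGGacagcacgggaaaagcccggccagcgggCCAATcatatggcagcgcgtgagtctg
Lss, chr10:76531455-76531604, plus strand, ring closure: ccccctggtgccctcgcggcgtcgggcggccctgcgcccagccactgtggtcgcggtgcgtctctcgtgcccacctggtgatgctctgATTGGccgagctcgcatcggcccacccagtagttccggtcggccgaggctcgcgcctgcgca
Cyp51, chr5:4104698-4104847, minus strand, first step after lanosterol: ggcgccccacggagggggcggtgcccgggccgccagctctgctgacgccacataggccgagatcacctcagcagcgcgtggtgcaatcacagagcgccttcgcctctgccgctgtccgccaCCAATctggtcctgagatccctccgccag
In the Hmgcs1 stretch the sterol response element began 137 bases before the start and a CCAAT box on the opposite strand 45 bases before it. Mvd had CCAAT boxes at 60 bases before the start on the opposite strand and at 27 on its own. In Lss a box lay 62 bases before the start on the opposite strand, and in Cyp51 29 bases before it on the gene's strand.

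Across the 48 arrays, the enzymes were lowest in the mice without the interleukin-1 beta transgene. The mean of the 8 genes was 7.90 ± 0.19 (SD, n = 3) on the log2 scale in WT mice on HFD, 8.11 ± 0.23 in FXR mice, 8.22 ± 0.04 in WT mice on chow at Freising and 8.29 ± 0.15 in WT mice at MRI. All 12 groups with the transgene were higher, from 8.58 ± 0.16 in pL2_IL8 at 9 months to 9.00 ± 0.19 in pL2_Dclk_Notch1fl_fl. Of the 36 transgenic arrays, 32 had a mean above 8.45, the highest array without the transgene. Across the split, the nearest groups touched, with arrays of 8.17 to 8.45 in WT mice at MRI and 8.44 to 8.75 in pL2_IL8 at 9 months. Neighbours in the order of the transgenic groups differed by no more than about 1 SD within a group.

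**Figure D1:**
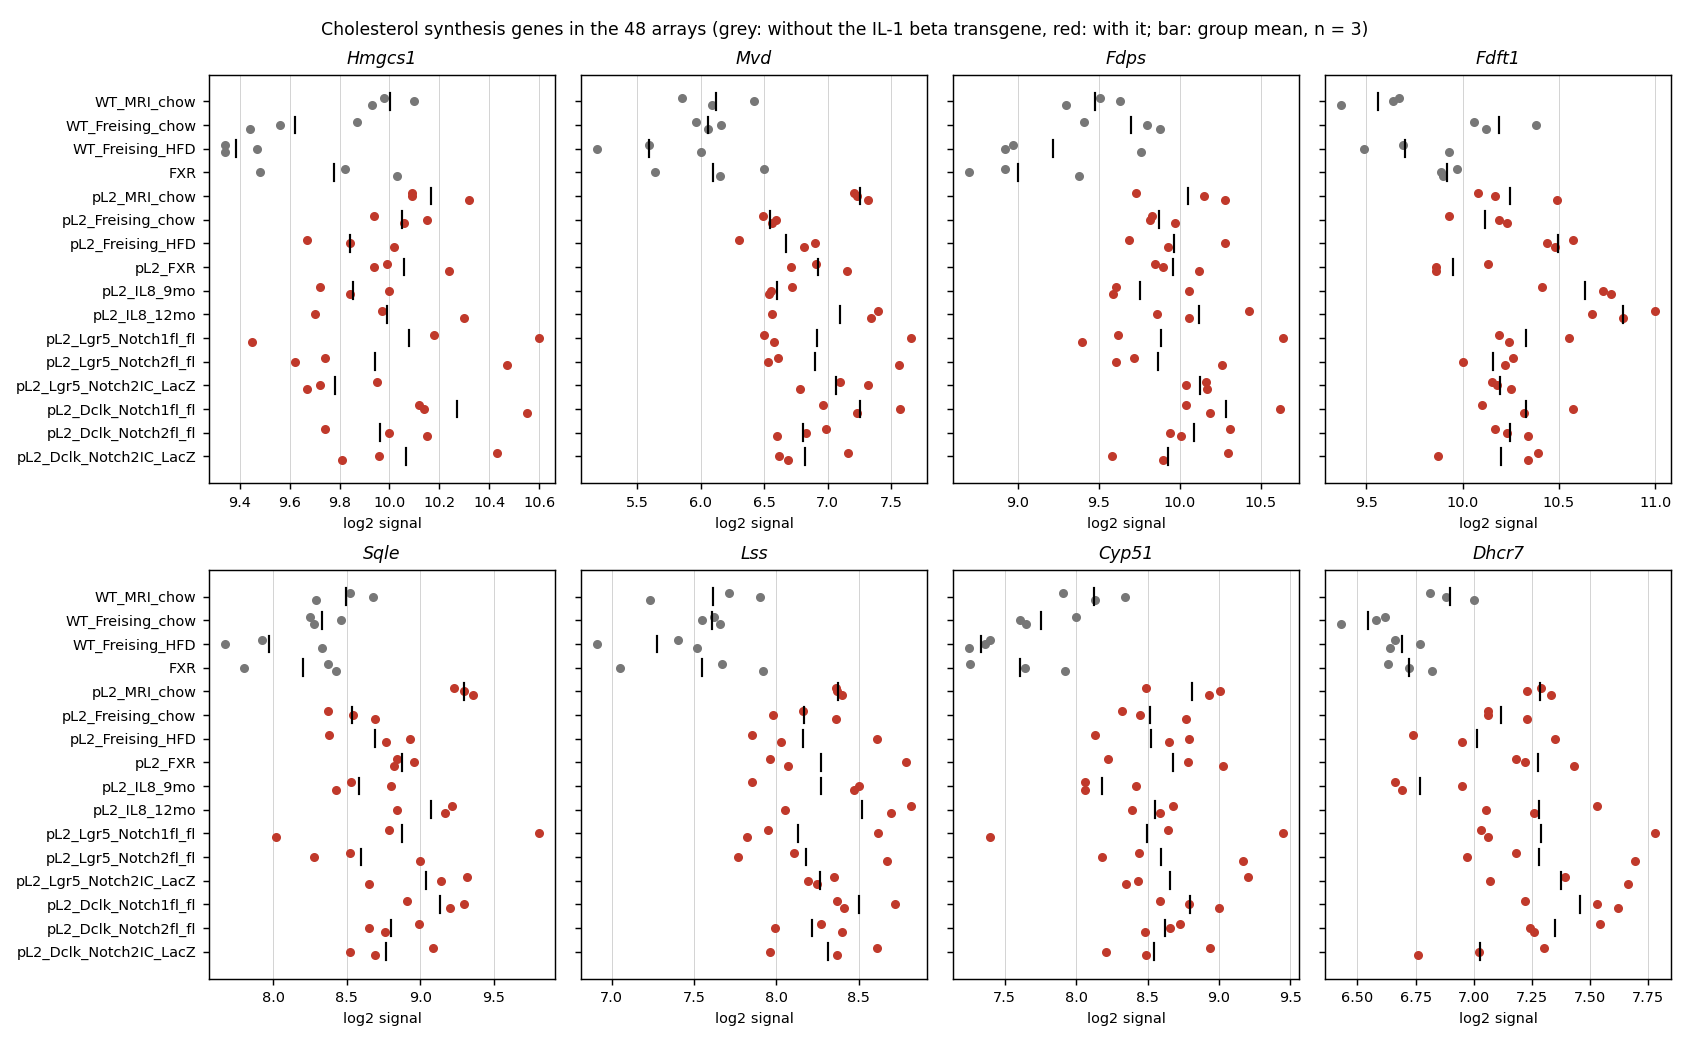
Each panel plots the log2 signal of 1 gene (x axis) in the 16 groups of 3 arrays (y axis), with a point for each array and a bar for the group mean. Grey groups lack the transgene and red groups carry it. For Mvd, 33 of 36 red points lie above the highest grey point at 6.50, while for Fdft1 13 do.

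The members differed in how cleanly they followed this split. Mvd, which decarboxylates mevalonate pyrophosphate to isopentenyl pyrophosphate, ran from 5.18 through a median of 6.03 to 6.50 in arrays without the transgene and from 6.30 through 6.82 to 7.66 in arrays with it. Lss, which closes the rings of lanosterol, ran from 6.91 through 7.58 to 7.92 and from 7.77 through 8.35 to 8.82. In both genes the 2 sets of arrays met only at their edges, with 33 and 32 of the 36 transgenic arrays above the highest other array. Dhcr7, the last reductase of the chain, had 29 transgenic arrays above that mark, Cyp51, the lanosterol demethylase, 28, Sqle, the epoxidase that acts on squalene, 25, and Fdps, which makes farnesyl pyrophosphate, 23. Hmgcs1, the enzyme that forms HMG-CoA at the start of the chain, had 12, and Fdft1, which joins farnesyl units to squalene, had 13. Hmgcs1 ran from 9.34 through 9.69 to 10.10 without the transgene and from 9.45 through 9.99 to 10.60 with it, so its ranges largely overlapped. Group means told the same: for Hmgcs1, Fdft1 and Dhcr7 3 of the 4 groups without the transgene were among the lowest 4, and for the other 5 genes all 4 were. The facilities, diets, backgrounds and ages of the groups differ, and these counts are a description with no test. The share of all genes with as clean a split is not given, so the counts do not show whether the members stand out.

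The members moved together from array to array. Over the 48 arrays, Pearson's r between the 28 pairs of members had a median of 0.75, from 0.26 (Hmgcs1 with Fdft1) to 0.90 (Mvd with Sqle). After each group's mean was subtracted, the median was 0.59, from 0.21 to 0.83. Against the mean of the other members, Sqle had r = 0.920 and Mvd 0.915, while Fdft1 had 0.531. Arrays share normalisation and tissue content, so these are descriptions. Fdft1 had the lowest such value of the 8, and its highest levels were in groups other than those of Sqle: the pL2_IL8 groups had 10.83 ± 0.17 at 12 months and 10.64 ± 0.20 at 9 months, followed by pL2 on HFD with 10.50 ± 0.07. For Sqle, the highest group was pL2 on chow at MRI with 9.30 ± 0.06.

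The difference that went with the transgene was read from chow-fed pL2 and WT mice by averaging the difference at MRI and that at Freising (6 and 6 arrays). Enzymes of all stretches of the pathway were higher in pL2: 6 of the 8 members rose, none fell, and the median difference over the 8 was 0.49 on the log2 scale, against -0.01 over all genes tested. Limma with Benjamini-Hochberg adjustment called 9.05% of genes higher in this comparison and 12.9% lower. In the mevalonate arm, Mvd rose 1.75-fold, by 0.81 ± 0.19 (SE; adjusted p = 0.00281). Hmgcs1 differed by 0.30 ± 0.15 (adjusted p = 0.162) and Fdps by 0.37 ± 0.18 (adjusted p = 0.136), and neither passed the test. In the squalene steps, Fdft1 rose by 0.31 ± 0.10 (adjusted p = 0.0324), Sqle by 0.50 ± 0.18 (adjusted p = 0.0483) and Lss by 0.66 ± 0.19 (adjusted p = 0.00949). After lanosterol, Cyp51 rose by 0.72 ± 0.22 (adjusted p = 0.0166) and Dhcr7 by 0.48 ± 0.13 (adjusted p = 0.00735), which are 1.65-fold and 1.40-fold. Mvd, Lss and Dhcr7 were called without each of the 12 arrays in turn. Without pL2 array 3 from Freising these 3 were the only calls, and Cyp51 was called without the other 11. Fdft1 was not called without WT or pL2 array 3 at MRI or without pL2 array 2 or 3 or WT array 1 or 3 at Freising, and Sqle was called only without WT array 2 at MRI or pL2 array 1 at Freising. With the title form as a covariate 4 of the 8 were called, since Fdft1, at 0.28, and Sqle, at 0.48, no longer passed (adjusted p = 0.0755 and 0.0896).

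**Figure D2:**
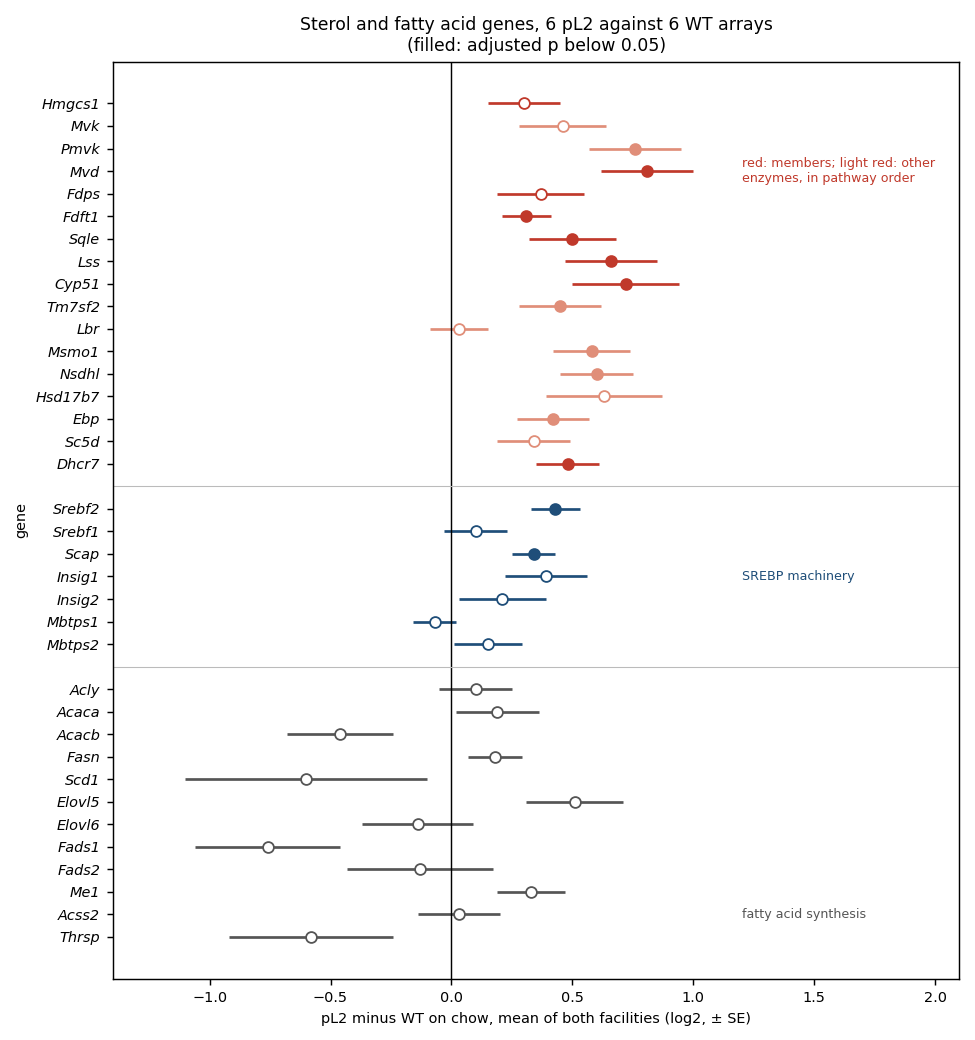
The x axis shows the log2 difference between pL2 and WT mice on chow (mean of both facilities, bars ± SE), and the y axis lists genes of cholesterol synthesis in pathway order, of the SREBP machinery and of fatty acid synthesis. Filled points passed an adjusted p of 0.05. Of the 17 synthesis enzymes 11 are filled, all to the right of 0, and none of the 12 fatty acid synthesis genes is.

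The other enzymes of the pathway went the same way. Of 9 further listed enzymes with an entry, 5 rose and none fell, with a median of 0.46: Pmvk, which phosphorylates phosphomevalonate, by 0.76 ± 0.19 (adjusted p = 0.00368), Nsdhl and Msmo1, which remove methyl groups from the sterol ring, by 0.60 ± 0.15 (adjusted p = 0.00391) and 0.58 ± 0.16 (adjusted p = 0.00665), Tm7sf2, a sterol reductase, by 0.45 ± 0.17 (adjusted p = 0.0486), and Ebp, a sterol isomerase, by 0.42 ± 0.15 (adjusted p = 0.0361). Pmvk, Nsdhl and Msmo1 were called without each of the 12 arrays in turn, Ebp only without WT or pL2 array 1 at MRI or pL2 array 1 or WT array 3 at Freising, and Tm7sf2 only without WT array 1 at MRI or pL2 array 2 or WT array 3 at Freising. With the title form as a covariate Tm7sf2 and Ebp were not called either (adjusted p = 0.0978 and 0.0539). Mvk (0.46 ± 0.18), Hsd17b7 (0.63 ± 0.24), Sc5d (0.34 ± 0.15) and Lbr (0.03 ± 0.12) did not pass.

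Among the regulators, Srebf2, which encodes SREBP2, rose by 0.43 ± 0.10 (adjusted p = 0.00169). Its arrays read 9.46, 9.76 and 9.89 in pL2 against 9.15, 9.47 and 8.85 in WT mice at MRI, and 9.53, 9.82 and 9.71 against 9.32, 9.35 and 9.46 at Freising. At Freising the groups did not overlap, and at MRI 1 WT array lay just above the lowest pL2 array. Scap, its escort, rose by 0.34 ± 0.09 (adjusted p = 0.00464). Averaged over all its entries Scap differed by 0.18 (adjusted p = 0.134), and with squamous suprabasal and skeletal muscle marker means as covariates Srebf2 differed by 0.29 (adjusted p = 0.168) and Scap by 0.26 (adjusted p = 0.176), so that these calls were lost. Srebf1, whose product acts mainly on fatty acid genes, differed by 0.10 ± 0.13, and Insig1 by 0.39 ± 0.17, neither passing; of the 7 genes of this machinery 2 rose and none fell, where 9.05% of all genes were called higher and 12.9% lower.

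Counts in neighbouring lipid pathways are set against the same 9.05% of all genes called higher and 12.9% lower. In fatty acid synthesis 0 of 12 genes were called by limma (4 at an unadjusted p under 0.05), with a median of -0.05, and the synthase gene Fasn differed by 0.18 ± 0.11. In efflux, esterification and LXR targets 0 of 8 were called (1 unadjusted), and in the isoprenoid branch, which takes farnesyl pyrophosphate to other products, 0 of 7 (1 unadjusted). Of 8 genes of uptake and transport, Stard4 and Stard3, which move sterols between membranes, rose by 0.51 ± 0.17 (adjusted p = 0.0259) and 0.38 ± 0.14 (adjusted p = 0.0476). Stard3 was called in 6 of 13 other settings and, of the fits without 1 array, only without WT array 3 at MRI or pL2 array 1 or WT array 2 at Freising, and it was 0.17 (adjusted p = 0.619) with the squamous and skeletal muscle covariates. Stard4 was called in 10 of 13 settings, and not without WT or pL2 array 3 at MRI or pL2 array 2 or WT array 1 at Freising, with 0.37 (adjusted p = 0.129) under the cell cycle covariate. Cyp7b1, an oxysterol hydroxylase, was the only one called of 7 tested bile acid synthesis genes and rose 2.06-fold (1.04 ± 0.31; adjusted p = 0.0131). It did not pass with the title form (0.87; adjusted p = 0.0578), the squamous and skeletal muscle means (1.17; adjusted p = 0.0858) or the cell cycle mean (0.84; adjusted p = 0.0642) as covariates. Acat1, the mitochondrial thiolase of ketone metabolism, fell by 0.80 (SE 0.18; adjusted p = 0.00135), and with the squamous and skeletal muscle covariates its difference was -0.64 (adjusted p = 0.0903).

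At MRI, where both groups share facility, diet, age and title form, Mvd read 7.21, 7.23 and 7.32 in pL2 mice and 5.85, 6.42 and 6.09 in WT mice. Sqle read 9.23, 9.30 and 9.36 against 8.52, 8.68 and 8.29. Lss read 8.36, 8.37 and 8.40 against 7.71, 7.90 and 7.23. In these 3 genes the pL2 arrays were close to each other and far above all WT arrays, which were more spread. Fdft1 read 10.08, 10.17 and 10.49 against 9.67, 9.64 and 9.37, again without overlap. These 4 members rose: Mvd by 1.13 ± 0.27 (2.19-fold; adjusted p = 0.00287), Fdft1 by 0.69 ± 0.15 (adjusted p = 0.001), Sqle by 0.80 ± 0.26 (adjusted p = 0.0243) and Lss by 0.76 ± 0.26 (adjusted p = 0.0316). Limma called 10.3% of genes higher here. Cyp51 at 0.68 ± 0.31, Fdps at 0.57 ± 0.25 and Dhcr7 at 0.39 ± 0.18 did not pass although their groups did not overlap, and Hmgcs1, at 0.16 ± 0.21, overlapped. All 3 pL2 arrays lay above all 3 WT arrays in 7 of the 8 members, against 16.8% of genes tested. Of the 9 other enzymes 7 rose, and Srebf2 (0.55 ± 0.14), Scap (0.48 ± 0.12) and Insig1 (0.72 ± 0.25; adjusted p = 0.0318), itself a target of SREBP2, rose too. Of 8 genes of efflux, esterification and LXR targets, limma called 1 higher and 1 lower, and of 8 genes of uptake and transport also 1 higher and 1 lower. It called 1 of 12 genes of fatty acid synthesis and 1 of 7 of the isoprenoid branch higher, and none of either lower. The efflux gene called lower, Abca1, which exports cholesterol, fell by 1.13 (SE 0.31; adjusted p = 0.00803), where 12.8% of all genes were called lower. Srebf2 lost its call without WT array 3, Abca1 without that array or pL2 array 2 or 3, and Insig1 without any 1 WT array or pL2 array 3. These 3 genes did not pass without the arrays high in hepatocyte or intestinal markers. With the squamous and skeletal muscle covariates Srebf2, at 0.30, Scap, at 0.34, Insig1, at 0.83, and Abca1, at -0.53, did not pass. Averaged over its entries Scap differed by 0.30 (adjusted p = 0.0731). In a fit of these groups alone Srebf2, Scap and Abca1 were not called. Leaving out WT array 1 or 3 or pL2 array 2 or 3 left 2 members called, Mvd and Fdft1, and leaving out pL2 array 1 left 3.

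The makeup of the tissue differed between the same arrays. At MRI the neutrophil marker mean (7 of 7 markers on the array) was 7.24 to 8.33 in pL2 and 4.34 to 6.19 in WT mice, smooth muscle (7 of 7) 8.46 to 10.43 against 11.35 to 11.79, fibroblast (7 of 7) 6.58 to 7.96 against 8.86 to 9.04, and skeletal muscle (8 of 8) 3.42 to 4.95 against 5.79 to 6.45. Endothelial means (7 of 7) were 5.05 to 6.67 in pL2 against 7.16 to 7.59 in WT mice, with 6 markers called lower. Macrophage means (7 of 7) were 5.62 to 6.19 against 6.59 to 6.77, with 6 markers called lower and 1 higher. The squamous suprabasal means (12 of 12) overlapped, at 9.07 to 9.47 in pL2 and 8.88 to 9.70 in WT mice. In whole tissue, fewer cells of a type and less RNA per cell cannot be told apart. When the means of squamous suprabasal and skeletal muscle markers entered the model, limma called 0 of 8 members at MRI (5 at an unadjusted p under 0.05) and 1 of 8, Mvd, in the mean of both facilities. Among the members called at MRI, Mvd went from 1.13 to 1.55 with these covariates and Sqle from 0.80 to 1.21. Lss went from 0.76 to 0.92 and Fdft1 from 0.69 to 0.78. Of the other members there, Fdps went from 0.57 to 0.86 and Hmgcs1 from 0.16 to 0.21. Dhcr7 went from 0.39 to 0.38 and Cyp51 from 0.68 to 0.56. The skeletal muscle means did not overlap between genotypes at MRI, so this covariate and genotype cannot be fully told apart there. In the mean of both facilities Mvd went from 0.81 to 1.05, Sqle from 0.50 to 0.73 and Cyp51 from 0.72 to 0.63. With the cell cycle marker mean as a covariate it called 2 and 3, with Mvd at 0.95 and 0.67. Without the arrays high in hepatocyte or intestinal markers it called 3 and 5. The part of neutrophils, of macrophages and of stroma in these differences was not tested.

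At Freising on chow, limma called 0 of 8 members (3 at an unadjusted p under 0.05), and it called 0.728% of all genes higher. Mvd read 6.49, 6.59 and 6.56 in pL2 against 5.96, 6.16 and 6.06 in WT mice. Dhcr7 read 7.06, 7.06 and 7.23 against 6.62, 6.58 and 6.43, and Lss 8.16, 7.98 and 8.36 against 7.62, 7.55 and 7.66. In these genes, in Cyp51 and in Hmgcs1 the groups did not overlap, 5 of the 8 members against 12.9% of genes tested. The differences were 0.57 ± 0.18 for Dhcr7 (adjusted p = 0.106), 0.76 ± 0.31 for Cyp51 (adjusted p = 0.207) and 0.48 ± 0.27 for Mvd (adjusted p = 0.381). The median over the members was 0.46 against -0.03 over all genes. Sqle (0.20 ± 0.26) and Fdft1 (-0.07 ± 0.15) had groups that overlapped, and the sign for Fdft1 turned when pL2 array 1 or WT array 2 was left out. Neutrophil marker means were 6.35 to 7.07 in pL2 and 4.06 to 4.37 in WT mice, while the squamous suprabasal means overlapped at 9.21 to 10.40 and 9.54 to 9.95. The squamous basal means (7 of 8 markers on the array) did not overlap, at 8.85 to 9.37 in pL2 and 8.33 to 8.76 in WT mice. Of these 7 markers 6 were higher in pL2, with 1 called and a median of 0.63. All 7 fibroblast markers were lower in pL2, with 2 called and a median of -1.05 (marker means 7.09 to 8.13 against 8.08 to 8.87). All 7 smooth muscle markers were lower too, with limma calling 0 (5 unadjusted), a median of -1.31 and means of 8.20 to 11.36 against 10.69 to 11.24. The part of squamous basal, fibroblast and smooth muscle content in the differences was not tested. Genotype and title form cannot be told apart at this facility on chow.

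Whether the transgene difference itself depended on the facility was tested as a difference of differences. None of the 8 members passed in limma (1 at an unadjusted p under 0.05), while 1.76% of genes did, and the median over the members was -0.30 (Freising minus MRI). Fdft1 came nearest, at -0.76 ± 0.21 (adjusted p = 0.0503), since its WT mean was 9.56 at MRI and 10.19 at Freising whereas its pL2 means were 10.25 and 10.12. Without WT array 2 or pL2 array 1 at MRI, or pL2 array 2 at Freising, 1 member passed.

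**Figure D3:**
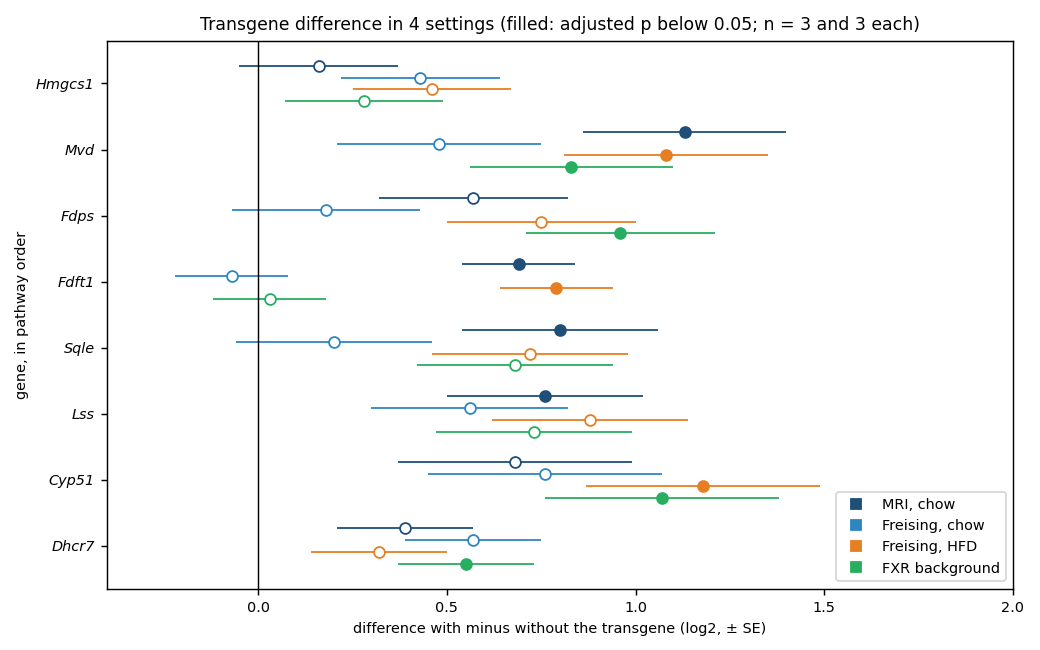
The x axis shows the log2 difference with minus without the transgene (± SE, 3 and 3 arrays) and the y axis the 8 members in pathway order, with 4 colours for chow at MRI, chow at Freising, HFD at Freising and the FXR background. Filled points passed an adjusted p of 0.05. Mvd is filled in 3 settings, and Fdft1 lies near 0 on chow at Freising (-0.07) and in the FXR background (0.03).

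On the high fat diet, 3 of 8 members were higher in pL2 than in WT mice, with 0.919% of all genes called higher. Mvd read 6.30, 6.90 and 6.81 in pL2 against 5.59, 5.18 and 6.00 in WT mice, a rise of 1.08 ± 0.27 (adjusted p = 0.0377). Fdft1 read 10.57, 10.44 and 10.48 against 9.69, 9.49 and 9.93 and rose by 0.79 ± 0.15 (adjusted p = 0.00259). Cyp51 read 8.13, 8.79 and 8.65 against 7.40, 7.36 and 7.25 and rose 2.27-fold, by 1.18 ± 0.31 (adjusted p = 0.0477). None of the 3 genes overlapped between the groups, and neither did Hmgcs1, Sqle and Lss, which makes 6 of 8 members against 11.4% of genes tested. Lss (0.88 ± 0.26), Fdps (0.75 ± 0.25), Sqle (0.72 ± 0.26), Hmgcs1 (0.46 ± 0.21) and Dhcr7 (0.32 ± 0.18) did not pass. Of the other enzymes Nsdhl rose, by 1.04 ± 0.21 (adjusted p = 0.00689), and among bile acid genes Cyp7b1, by 1.91 ± 0.43 (adjusted p = 0.0176). Both lost the call without pL2 array 2, WT array 1 or WT array 2, with the cell cycle covariate and in a fit of these groups alone, and Cyp7b1 also with the title form as a covariate. Without WT array 2 limma called 0 members (6 at an unadjusted p under 0.05), and without WT array 1 or pL2 array 2 or 3 it called 1, against 2 without WT array 3. Cyp51 was called only without pL2 array 1, and Fdft1 lost its call only without WT array 2. Fitted on these groups alone, limma also called 0 (7 unadjusted). The pL2 arrays had neutrophil means of 6.48 to 8.72 against 4.36 to 4.64 in WT mice, with overlapping squamous suprabasal means (9.43 to 10.14 and 9.56 to 10.11).

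No member passed the test for diet. In WT mice on HFD against chow, limma called 0 of 8 (1 at an unadjusted p under 0.05; 0.164% of all genes called), yet 7 of 8 differences were negative, with a median of -0.39 against 0.01 over all genes. Fdft1 read 9.69, 9.49 and 9.93 on HFD and 10.06, 10.38 and 10.12 on chow, and Lss 7.40, 6.91 and 7.52 against 7.62, 7.55 and 7.66. Both genes and Cyp51 lay wholly lower on HFD, 3 of 8 members against 8.67% of genes tested, and Dhcr7 lay wholly higher (7.14% of genes). The differences were -0.48 ± 0.15 for Fdft1 (adjusted p = 0.482), -0.41 ± 0.31 for Cyp51 and -0.33 ± 0.26 for Lss. In pL2 mice limma called 0 of 8 members and 0% of all genes (1 and 872 at an unadjusted p under 0.05), with a median over the members of 0.05. The test of whether the diet difference depended on the transgene also called 0 members (1 unadjusted; 0.0197% of all genes called), with a median of 0.47 and Fdft1 at 0.87 ± 0.21 (adjusted p = 0.264). This test and the transgene comparisons share their groups.

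In the FXR background, 4 of 8 members were higher in pL2_FXR than in FXR mice, with 5.15% of all genes called higher. Fdps read 9.85, 9.90 and 10.12 in pL2_FXR against 8.92, 8.70 and 9.38 and rose by 0.96 ± 0.25 (adjusted p = 0.013). Cyp51 read 8.22, 8.78 and 9.03 against 7.26, 7.64 and 7.92 and rose by 1.07 ± 0.31 (adjusted p = 0.0239). Mvd read 6.91, 6.71 and 7.15 against 6.50, 5.64 and 6.15 and rose by 0.83 ± 0.27 (adjusted p = 0.0472). Dhcr7 read 7.18, 7.22 and 7.43 against 6.63, 6.72 and 6.82 and rose by 0.55 ± 0.18, at an adjusted p that rounds to 0.05. In these 4 genes, in Sqle and in Lss the groups did not overlap, 6 of 8 members against 13.9% of genes tested. Fdft1 was an exception, with 10.13, 9.86 and 9.86 against 9.97, 9.89 and 9.90 and a difference of 0.03 ± 0.15, whose sign turned without pL2_FXR array 1. Of the other enzymes 4 of 9 rose, such as Hsd17b7, a sterol ketoreductase, by 1.06 ± 0.34 (adjusted p = 0.0388), a call lost without array 1 or 2 of either group, and at 0.65 (adjusted p = 0.366) with the squamous and skeletal muscle covariates.

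These FXR calls depended on single arrays and on covariates. Without FXR array 2 or pL2_FXR array 3 limma called 0 members (3 and 6 at an unadjusted p under 0.05), without FXR array 1 or pL2_FXR array 2 it called 1, and without each of the other arrays 3. Dhcr7 lost its call in all 6 of these fits. Squamous suprabasal means were 8.68 to 9.32 in pL2_FXR and 7.32 to 7.78 in FXR mice, squamous basal means (7 of 8 markers on the array) 8.25 to 9.07 and 6.65 to 7.61, and neutrophil means 7.24 to 7.81 and 3.99 to 4.32. With the squamous and skeletal muscle means as covariates 0 members were called (4 unadjusted), and with the cell cycle mean 0 (6 unadjusted). With the former, Mvd went from 0.83 to 0.95, Fdps from 0.96 to 0.86, Cyp51 from 1.07 to 0.67 and Dhcr7 from 0.55 to 0.27. With the latter they were 0.65, 0.84, 0.97 and 0.50. No member was called for the FXR line itself: against WT mice at MRI limma called 0 of 8 (1 unadjusted; 2.12% of all genes called), with Fdft1 at 0.36 ± 0.15 and Cyp51 at -0.52 ± 0.31, and pL2_FXR against pL2 gave 0 of 8 (0 unadjusted; 0.0853% of all genes). All 8 differences of the latter were negative, with a median of -0.12, and Mvd (-0.33 ± 0.27) and Sqle (-0.42 ± 0.26) did not overlap between groups, against 4.11% of genes wholly lower. The difference of these differences called 0 members (1 unadjusted; 0.138% of all genes). Tissue makeup differed in these comparisons too. In FXR against WT mice, 5 of 7 squamous basal and 4 of 12 squamous suprabasal markers were called lower, with medians of -1.97 and -1.60. In pL2_FXR against pL2 mice, 3 of 7 endothelial and 2 of 7 fibroblast markers were called higher, with medians of 1.41 and 1.23. The part of this makeup in the member differences was not tested.

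Taking the 4 settings as 1 comparison, an average chosen after the data were seen, limma called 8 of 8 members higher, with 16.1% of all genes called higher and a median of 0.61. Of the other enzymes 8 of 9 were called. The MRI and Freising chow arrays enter this average as they enter the comparison above, so it adds the HFD and FXR groups to the same arrays.

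Added interleukin-8 went with 1 called difference. Against pL2 mice at MRI, pL2_IL8 mice at 12 months had 1 of 8 members higher, Fdft1, with 1.37% of all genes called higher. Fdft1 read 11.00, 10.67 and 10.83 against 10.08, 10.17 and 10.49, with no overlap (14.1% of all genes lay wholly higher), and rose by 0.59 ± 0.15 (adjusted p = 0.0329). Sqle, the next enzyme, read 9.22, 8.84 and 9.17 against 9.23, 9.30 and 9.36 and lay wholly below, as did 7.34% of genes, at -0.22 ± 0.26 (adjusted p = 0.727). The median over the members was -0.08. Scap fell by 0.46 (SE 0.12; adjusted p = 0.0447), the only called gene of the SREBP machinery, with 0.453% of all genes called lower. Averaged over its entries Scap differed by -0.33 (adjusted p = 0.152), and its call was lost without pL2_IL8 array 1 or 2 or pL2 array 2 or 3. Limma called 0 members without pL2_IL8 array 1 or 3 or pL2 array 1 or 2, in a fit of these groups alone, and without the arrays high in hepatocyte or intestinal markers (1 unadjusted in each). Hepatocyte marker means (8 of 8 markers) were 5.39 to 8.92 in pL2_IL8 and 6.23 to 8.34 in pL2 mice. All 7 endothelial markers were called higher in pL2_IL8, with a median of 1.77 and means of 7.30 to 7.55 against 5.05 to 6.67. All 7 fibroblast markers were higher, with 1 called, a median of 0.91 and means of 7.99 to 8.34 against 6.58 to 7.96. Their part in the Fdft1 difference was not tested. Between 9 and 12 months of pL2_IL8, 0 members and 0% of all genes were called by limma (1 and 1184 unadjusted), though all 8 differences were positive with a median of 0.37. Dhcr7 was nearest, with 7.53, 7.05 and 7.26 at 12 months against 6.66, 6.95 and 6.69 at 9 months (0.51 ± 0.18; adjusted p = 0.411), and its groups and those of Sqle did not overlap, 2 members against 8.71% of genes wholly higher. All 12 squamous suprabasal markers were higher at 12 months, with 0 called (9 unadjusted) and a median of 1.58. Their means were 9.52 to 10.10 against 7.78 to 9.05. All 8 hepatocyte markers were higher too, with 0 called (1 unadjusted), a median of 2.34 and means of 5.39 to 8.92 against 5.14 to 5.40. The part of tissue makeup in the differences between these ages was not tested.

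No member passed the test in a Notch line. In each of the 6 lines limma called 0 of 8 members against pL2 mice at MRI, with 0 to 1 members at an unadjusted p under 0.05. Of all genes it called 0.144% in pL2_Lgr5_Notch1fl_fl, 0.0525% in pL2_Lgr5_Notch2fl_fl, 0.138% in pL2_Lgr5_Notch2IC_LacZ, 0% in pL2_Dclk_Notch1fl_fl (1589 genes at an unadjusted p under 0.05), 0.256% in pL2_Dclk_Notch2fl_fl and 0.0197% in pL2_Dclk_Notch2IC_LacZ. Medians over the members ran from -0.20 in the lines with Lgr5 and either floxed allele to 0.09 in pL2_Dclk_Notch1fl_fl. Sqle was below pL2 in all 6 comparisons, by 0.16 to 0.70 on the log2 scale, and the largest difference was -0.70 ± 0.26 in pL2_Lgr5_Notch2fl_fl (adjusted p = 0.412), where it read 8.52, 8.28 and 9.00 against 9.23, 9.30 and 9.36. These 6 comparisons share the same 3 pL2 arrays, which had the highest Sqle mean of the 16 groups. Its sign turned in pL2_Lgr5_Notch1fl_fl without array 3 of that line and in pL2_Lgr5_Notch2IC_LacZ with age as a covariate. Limma also called 0 of 8 members (0 unadjusted in each) between the Notch2IC_LacZ and Notch2fl_fl lines, where it called 0.0722% of all genes with the Lgr5 driver and 0.0328% with Dclk, between the Notch1fl_fl and Notch2fl_fl lines (0.0722%) and between the Dclk and Lgr5 drivers (0.945%).

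The widest spread between replicates was in pL2_Lgr5_Notch1fl_fl, where the SD of the member mean was 0.58. There Sqle read 8.79, 9.81 and 8.02 and Cyp51 8.64, 9.45 and 7.40, so that array 2 had the highest and array 3 the lowest transgenic value of both. Array 2 also had the highest mean over the 8 members of all 48 arrays, 9.39, and the highest hepatocyte marker mean, 11.28, while array 3, with a mean of 8.25, had an intestinal marker mean of 9.35. The other arrays with a hepatocyte mean above 8 had member means of 8.25 (WT at MRI), 9.05 (pL2 at MRI), 8.84 (pL2_FXR) and 9.13 (pL2_IL8 at 12 months). Liver makes much cholesterol, and the part of such tissue in these values was not tested beyond the fits without these arrays.

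**Figure D4:**
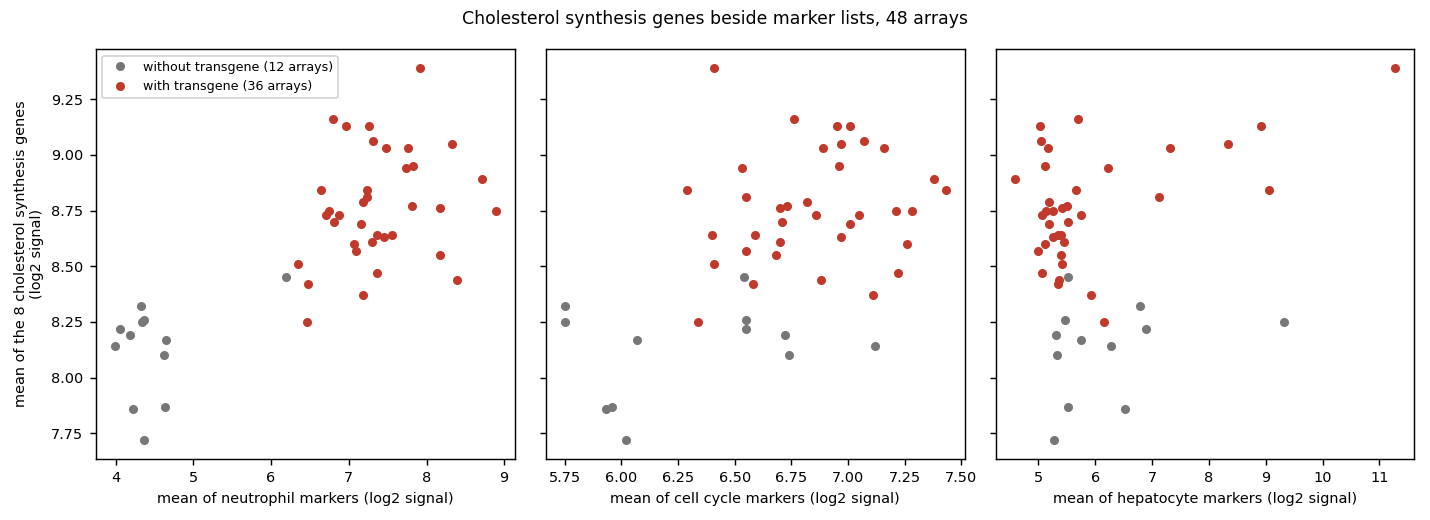
Each point is 1 of the 48 arrays, with the mean log2 signal of a marker list on the x axis (neutrophil, cell cycle, hepatocyte) and the mean log2 signal of the 8 members on the y axis. Grey points lack the transgene and red points carry it. The neutrophil means of the grey arrays, from 3.99 to 6.19, lie below those of all red arrays, while the array with the highest hepatocyte mean, 11.28, has the highest member mean, 9.39.

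Over the 48 arrays the mean of the members correlated with the neutrophil marker mean at r = 0.759, with cell cycle markers (8 of 9 on the array) at 0.514, with squamous basal markers at 0.457, with fibroblast markers at -0.610 and with smooth muscle markers at -0.621. After group means were subtracted these were 0.443, 0.270, 0.395, -0.310 and -0.363, and gastric columnar markers (9 of 10 on the array) had -0.548. Hepatocyte markers had 0.229 over the arrays and 0.428 within groups, squamous suprabasal markers 0.288 and 0.399, and skeletal muscle markers -0.173 and 0.336. The arrays share groups and tissue makeup, so the values are descriptions.

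The genes most like the members were sought among the other tested genes by Pearson's r with the member mean over the 48 arrays. Aacs, which activates acetoacetate for lipid synthesis, came first at 0.903, followed by Nsdhl at 0.892, Ankk1 at 0.865, Msmo1 at 0.864, the desmosomal cadherin gene Dsc2 at 0.855, the cornified envelope gene Sprr2f and Pmvk at 0.849 each, the retinol dehydrogenase gene Rdh11 at 0.848, the defensin gene Defb14 at 0.841 and Nab1 at 0.836. After group means were subtracted, which leaves the differences between arrays of 1 group, Aacs was again first at 0.882. The next 9 were Fgfbp1 at 0.858, Rdh11 at 0.853, Sc5d, a late sterol desaturase, at 0.850, Acly, which supplies cytosolic acetyl-CoA, at 0.849, Msmo1 at 0.844, Pmvk at 0.831, Nsdhl at 0.819, Mvk at 0.804 and Fasn at 0.795. Thus Dsc2, Sprr2f and Defb14 were among the first 10 only before group means were subtracted, and Acly and Fasn only after it. Srebf2 ranked 157 over all arrays (r = 0.695) and 1253 within groups (r = 0.428), and Srebf1 284 (r = 0.640) and 68 (r = 0.671).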

How the data were processed

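RNA of whole junction and cardia tissue was measured in 48 samples, 1 array each. The deposited values are log2 signals per probe set, made by the authors with RMA (background correction, quantile normalisation, median polish) in Affymetrix Expression Console, per the submitters' processing notes; the version and the genome build are not given in the sources used here. RMA fixes the overall distribution of each array, so a change shared by most genes would be lost.

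Of 34390 entries, 23521 carried 1 symbol and the 1814 with several and the 9055 with none were left out. The entry with the highest mean over the 48 arrays stood for a gene. A gene was tested if 3 or more arrays had it above their own median. Group means were modelled with limma 3.58.1 (R 4.3.3) on the 48 arrays jointly (32 residual degrees of freedom), 24 comparisons were tested two-sided, and p-values were Benjamini-Hochberg adjusted over the 15242 genes of each, with calls at an adjusted p below 0.05. Errors beside differences are standard errors, and errors beside group means are SD with n = 3. Groups came from the labels. The number of an array within its group is its place in the order of the samples, not a label. The number of arrays limits the precision.

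The members, gene lists and comparisons were chosen with earlier results of these data known. Named genes are the members, up to 4 called genes per list and comparison by smallest p, regulators fixed by name, and the 10 genes most like the members. For members and listed genes, counts stand beside the share of all genes called. Alternatives are given in the closing section. Simulated data (15242 genes, 200 of them changed) were used to test these steps: in the mean transgene comparison 36.5% of changes of 0.5 and 82.5% of changes of 1 on the log2 scale were called, and at MRI alone 5.5% and 61%.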

Additional observations from a re-analysis of the deposited data

How the results depend on the processing

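Fits that left out 1 array each called 3 to 6 members in the mean transgene comparison, 2 to 4 at MRI, 0 to 1 in the difference between facilities, 0 to 4 on HFD, 0 to 3 in the FXR background, 0 to 1 for pL2_IL8 and 0 in every other comparison. With array quality weights, 7 members were called on HFD, 3 at Freising on chow, 2 for HFD against chow in WT mice, and 1 each for the difference between facilities, the diet difference by transgene, the ages of pL2_IL8, pL2_Lgr5_Notch2fl_fl and pL2_Dclk_Notch2fl_fl. Averaging a gene's entries, filtering more strictly and trended robust moderation each called 1 in the difference between facilities. Cyclic loess left 2 at MRI, the title suffix as a covariate 4 in the mean comparison and 1 on HFD, and no filter 2 in the FXR background. Squamous and skeletal muscle covariates left 1 in the mean comparison, 0 at MRI and 0 in the FXR background. The difference for Mvd was 1.05, 1.55 and 0.95 there against 0.81, 1.13 and 0.83 without them. Cyp51 had 0.63, 0.56 and 0.67 against 0.72, 0.68 and 1.07, and Dhcr7 0.46, 0.38 and 0.27 against 0.48, 0.39 and 0.55. A cell cycle covariate left 3, 2 and 0, with 1 on HFD. Fits of the compared groups alone left 0 on HFD, 0 for pL2_IL8 and 2 in the FXR background, and leaving out the arrays high in hepatocyte or intestinal markers left 0 for pL2_IL8. The cause was not tested.

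Of 2275 results under alternatives, 1973 were labelled the same, 249 weaker and 46 stronger, and 7 changed sign. Fdft1 at Freising on chow was 0.00 with cyclic loess, and -0.14 to 0.02 without 1 array, with 0.02 without pL2 array 1 or WT array 2. In the FXR background Fdft1 was -0.01 with the cell cycle covariate and -0.06 to 0.07 without 1 array, the lowest without pL2_FXR array 1. Sqle was 0.06 in pL2_Lgr5_Notch2IC_LacZ with age as a covariate and -0.89 to 0.00 in pL2_Lgr5_Notch1fl_fl without 1 array, the highest without array 3 of that line. Age was not run for the ages of pL2_IL8, since it is that comparison. No paired analysis was possible because the labels give no replicate numbers and no pairing. With 3 arrays a group, changes of 0.5 on the log2 scale were mostly not called in simulated data.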
